A study of Mus musculus with 24 samples.

Results

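Histone genes were read out here in haematopoietic stem cells of young and old mice. The members were the genes whose symbols began with Hist1h, Hist2h, Hist3h or Hist4h, with H2af, with H3f3 or with H1f, which gave 57 of the 18762 genes measured. Of these, 45 carried a Hist name and are called replication-dependent, and the other 12 are replacement variants. The family was chosen by a rule on names, but it was selected on known results of the comparison of old with young mice, in which Hist1h1b was already known to be lower in old mice. The age values of all members are therefore given as a description, and nothing is read from their age calls. The comparison of the library letters below did not enter the choice.

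The cells were LSK-SLAM cells, the marrow fraction that lacks lineage markers, carries Sca-1, c-Kit and CD150, lacks CD48 and is highly enriched for stem cells. They came from 5 young C57BL/6 wild-type mice of 4 to 5 months and 7 old ones of 20 to 22 months, with 15000 cells sorted per mouse. The labels name no transgene, agent or transplantation in any of the mice. Ribosomal RNA was removed and 300 pg of RNA entered each library, and the labels end each mouse name in a letter, A (2 young and 4 old mice) or B (3 young and 3 old mice), whose meaning they do not give.

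Chromatin is built on octamers of the core histones H2A, H2B, H3 and H4, and the linker histone H1 sits on the DNA between them. Replication-dependent histone genes lie in clusters, have no introns and are transcribed in S phase, and most of their mRNAs end in a conserved stem-loop in place of a poly(A) tail, which the stem-loop binding protein SLBP recognises. Replacement variants such as H3.3 and H2A.Z are made from polyadenylated mRNAs throughout the cell cycle and can enter chromatin outside of replication.

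The libraries differed by letter before any histone was considered. Reads on genes ranged from 861047 to 3106243 per library in letter A and from 3233516 to 5118507 in letter B, without overlap. The values are read counts that the authors scaled between libraries, and 3 reads were worth 0.583 to 3.69 normalized reads. Gm10800, an abundant predicted gene, took 7.18 to 18.6% of the reads in letter A and 1.60 to 8.44% in letter B. All 10 markers of stem cells on the list examined were tested, with a summed level of 3120 to 5161 normalized reads in young and 1680 to 5687 in old mice. Markers of erythroid, myeloid, lymphoid and endothelial or stromal cells were read as well, and none of the marker genes found was at 0 in every mouse. An age comparison without the letter mixes 2 of 5 young with 4 of 7 old mice of letter A. Values by letter therefore stand beside the class sums, the class medians and many single genes, but not beside every age value.

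Of the 45 replication-dependent genes, 32 lie in the cluster on chromosome 13, 10 on chromosome 3, 2 on chromosome 11 and 1 on chromosome 6. A single exon makes up 44 of them. By type, 2 encode H1, 15 H2A, 10 H2B, 8 H3 and 10 H4. The GENCODE vM21 annotation holds 91 genes that meet the name rule, beside the 57 measured. Counts by place and type and shares of reads therefore describe the genes measured and not the whole family. The gene copies are alike in sequence, and 30 of the 45 share over 50% of their 50-base words with another gene, against 0 of the 12 replacement variants. How the authors assigned reads that match several copies is not given in the sources used here, so the values of single copies are uncertain, apart from genes such as Hist1h1b and Hist2h2be, of which 0% of the words are shared.

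The histone stem-loop was found in the annotated transcripts of 28 replication-dependent genes and of 1 replacement variant, H2afx, while the whole annotation of 55450 genes holds it in 86. Among the 17 replication-dependent genes without it, 13 have a gene model that ends at the stop codon, so these models cannot show it, and Hist1h1b is among these 13. There were 8 different cores among the 29 members, and the commonest, that of Hist1h1c, occurred in 16. The following examples are given 5′ to 3′ on the transcribed strand (GENCODE vM21, GRCm38), with the 16-base core in capitals, because this element marks the class compared here; H2afx shares it although its name places it among the variants.
Hist1h1c: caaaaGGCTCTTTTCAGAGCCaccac
Hist1h2ab: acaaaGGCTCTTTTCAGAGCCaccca
Hist1h3e: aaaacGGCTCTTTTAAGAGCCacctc
Hist2h2ac: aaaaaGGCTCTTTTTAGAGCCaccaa
Hist2h4: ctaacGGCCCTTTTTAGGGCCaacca
Hist4h4: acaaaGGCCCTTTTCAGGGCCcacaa
H2afx: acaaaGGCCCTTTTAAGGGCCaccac
Hist1h1c and Hist1h2ab share 1 core, and each of the other members shown has a different one. In Hist1h2ab the core ends 11 bases before the annotated end, whereas it lies 840 bases before the end in Hist1h1c, 822 in H2afx, 1257 in Hist2h4 and 2445 in Hist4h4, whose models run far past it.

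Promoters, taken as 250 bases before to 50 bases after the RefSeq start (GRCm38.p6), were matched for 41 replication-dependent genes and 10 variants. The CCAAT box, searched as CCAAT on both strands, stood in 33 of 41 replication-dependent windows, 9 of 10 variant windows and 37.4% of all 32851 windows. The replication-dependent windows without it all belonged to H4 genes: Hist1h4b, Hist1h4f, Hist1h4i, Hist1h4j, Hist1h4k, Hist1h4m, Hist1h4n and Hist4h4. Windows of neighbouring genes can overlap, as those of Hist1h2ak and Hist1h2bn do, so some boxes were counted in both. TATAAA stood in 25 of 41, 1 of 10 and 13.6%, and the letters TATATA, which can overlap it, in 11 of 41, 0 of 10 and 5.67%. The AAACACA element known from H1 genes was in both H1 windows, in 5 of 41 replication-dependent windows, in 1 of 10 variant windows and in 7.18% of all. Windows are printed for the H1 pair, of which Hist1h1b alone did not overlap between ages, for Hist1h2ak, the replication-dependent gene with the highest level per kilobase, and for H2afz, the member with the largest difference between letters, with the motif letters in capitals.
Hist1h1b (chr13:21780576-21780875, minus strand): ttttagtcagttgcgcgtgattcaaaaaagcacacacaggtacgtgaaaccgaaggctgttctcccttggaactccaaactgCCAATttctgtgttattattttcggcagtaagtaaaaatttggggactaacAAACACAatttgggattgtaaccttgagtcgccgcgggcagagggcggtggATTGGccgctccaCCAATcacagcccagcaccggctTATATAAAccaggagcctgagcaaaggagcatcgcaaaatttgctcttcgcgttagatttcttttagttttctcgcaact
Hist1h1c (chr13:23738557-23738856, plus strand): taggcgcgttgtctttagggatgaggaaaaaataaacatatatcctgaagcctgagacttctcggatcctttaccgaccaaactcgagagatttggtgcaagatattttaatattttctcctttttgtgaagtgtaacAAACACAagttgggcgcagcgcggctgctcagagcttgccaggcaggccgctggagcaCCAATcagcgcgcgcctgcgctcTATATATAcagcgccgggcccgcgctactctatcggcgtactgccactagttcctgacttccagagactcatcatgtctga
Hist1h2ak (chr13:21753863-21754162, minus strand): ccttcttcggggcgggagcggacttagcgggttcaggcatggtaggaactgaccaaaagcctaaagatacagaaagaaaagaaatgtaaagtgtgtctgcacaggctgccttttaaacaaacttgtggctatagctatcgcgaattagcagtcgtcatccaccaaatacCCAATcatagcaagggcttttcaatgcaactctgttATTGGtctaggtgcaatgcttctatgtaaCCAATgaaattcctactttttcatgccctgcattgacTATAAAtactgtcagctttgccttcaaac
H2afz (chr3:137864237-137864536, plus strand): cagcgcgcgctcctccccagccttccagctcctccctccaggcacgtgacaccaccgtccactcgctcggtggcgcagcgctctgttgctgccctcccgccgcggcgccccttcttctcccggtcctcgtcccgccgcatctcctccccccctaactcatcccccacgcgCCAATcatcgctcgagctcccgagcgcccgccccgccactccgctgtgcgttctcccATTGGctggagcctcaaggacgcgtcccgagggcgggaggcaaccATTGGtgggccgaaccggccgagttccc
The H1 windows hold the AAACACA element upstream of a CCAAT box and a TATA run, and the H2afz window holds 3 CCAAT boxes and no TATA letters. A match is a description of the letters only.

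Of the 57 members, 25 had a mean of at least 10 normalized reads and were tested, 17 replication-dependent genes and 8 replacement variants. All 57 members are in the table, 29 of the 45 replication-dependent genes had a read in every mouse, and Hist2h3c1 and Hist1h2ap had none in any mouse. The 28 replication-dependent genes that were not tested had means of up to 9.07 normalized reads. The 4 variants not tested were H1foo, the oocyte linker histone, at a mean of 3.81 normalized reads and H2afb1, H2afb2 and H2afb3 at 0.48, 0.95 and 0.32. These 4 are genes known from germ cells.

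Per kilobase of annotated exon, Hist1h2ak was the highest replication-dependent gene with a mean of 337 normalized reads, followed by Hist1h1c with 136, Hist1h1b with 109, Hist1h2af with 88.4 and Hist1h3e with 87.5. Hist1h2ak has a model of only 393 bases, that is, the coding part, and whether this affects its level per length was not tested. Among the variants H3f3b led with 224 per kilobase, ahead of H2afx with 72.5, H2afv with 34.0, H2afz with 24.7, H2afj with 21.6, H1fx with 20.9, H3f3a with 19.7 and H2afy2 with 6.80. H3f3b and H3f3a encode the same H3.3 protein, and H3f3b held 65.3% of all variant reads. Neighbours in this order from H2afv to H3f3a differed by less than the spread between mice.

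The summed replication-dependent reads were 901, 723, 1056, 1499 and 2208 normalized reads in young mice 1 to 5. In the 7 old mice the sum ran from 376 to 1153 with a median of 664. Young mouse 5 was the highest of the 12 mice, and 2 old mice, at 783 and 1153, lay within the young range. The means were 1277 ± 595 (SD, n = 5) and 700 ± 238 (SD, n = 7). Within letter A the young mice, at 723 and 901, lay above the 4 old mice, at 376 to 664. Within letter B young mice reached 1056 to 2208 and old mice 720 to 1153, and the ranges overlapped by old mouse 4. In bulk RNA, fewer cells that contain these mRNAs cannot be told apart from less mRNA per cell.

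The 12 replacement variants summed to 666, 716, 1343, 1676 and 1218 normalized reads in the young mice. In old mice they ran from 410 to 1439 with a median of 848. The ages overlapped widely, and here the letters parted, with 410 to 848 in letter A and 1218 to 1676 in letter B. Replication-dependent genes made up 44.0 to 64.4% of all histone reads in young mice (52.7% ± 8.26, SD, n = 5) and 33.4 to 58.1% in old mice (43.9% ± 7.67, SD, n = 7). The 95% Wilson interval of a single mouse was as wide as 39.4 to 46.6% in old mouse 7, which had 306 replication-dependent reads, and covers counting error only. The share overlapped between ages.

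**Figure D1:**
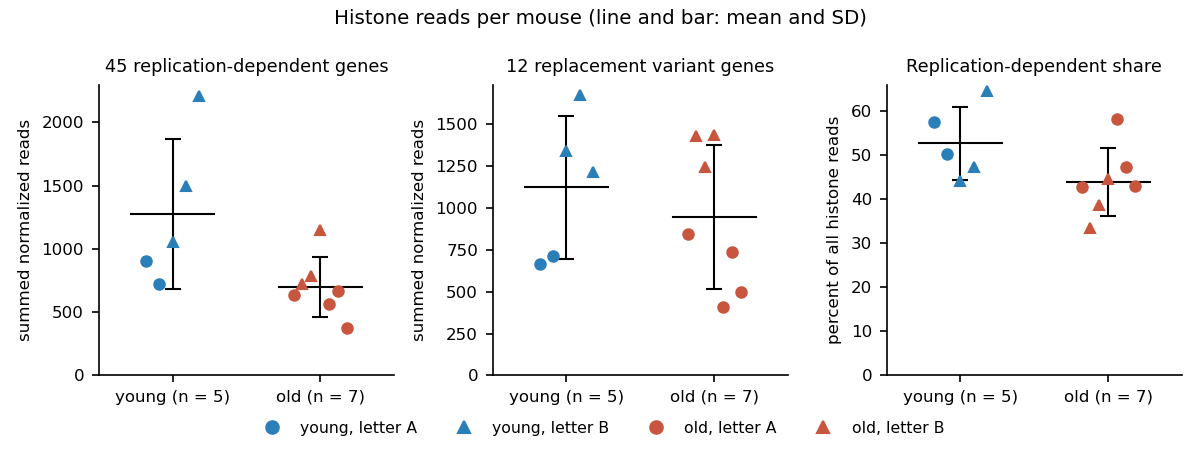
Summed normalized reads per mouse of the 45 replication-dependent genes and of the 12 replacement variants, and the replication-dependent share in percent, in young (n = 5) and old (n = 7) mice; colour gives age, shape gives the letter, and the line and bar give mean and SD. Replication-dependent sums reach 2208 in young mouse 5 and 376 in the lowest old mouse, whereas the replacement sums separate the letters (410 to 848 in A, 1218 to 1676 in B).

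Of the 12354 genes tested in the comparison of old with young, 0.00809% were called lower in old mice (limma, adjusted p under 0.05), and of the 25 histone genes 1 was called, Hist1h1b. Since this comparison chose the family, nothing is read from that count. The fitted difference lay below 0 for 16 of 17 replication-dependent genes, with a median log2 difference of -0.90, and for 7 of 8 replacement variants, with a median of -0.34, beside 52.3% and -0.02 over all genes tested. Hist1h3i and Hist1h3b, among the 17, reached the minimum mean only through the young mice. Nothing is therefore read from the count or median of the replication-dependent genes. Without young mouse 5 the medians of the 2 classes were -0.65 and -0.26. In the mice of letter A they were -0.48 and -0.26, in those of letter B -0.87 and -0.20, and with the letter as a covariate -0.71 and -0.26. Groups did not overlap, with old below young, in 1 of the 25 histone genes, again Hist1h1b, and in 0.17% of all genes.

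Linker histones come first. Hist1h1b (ENSMUSG00000058773, chr13:21779883-21780625, minus strand, 1 exon of 743 bases) encodes H1.5. Its values were 105, 103, 111, 145 and 188 normalized reads in young mice 1 to 5 and ran from 29.9 to 83.1 with a median of 37.5 in the old mice. Each old mouse lay below each young mouse, and the old mice of both letters lay together. The means were 131 ± 36.5 (SD, n = 5) and 46.2 ± 18.4 (SD, n = 7), a log2 difference of -1.52 (SE 0.25) or 2.86-fold lower. Letter A alone gave -1.08 and letter B alone -1.91. The call was lost, with log2 differences of -1.57, -1.47, -1.38, -1.48, -1.43 and -1.48, when young mouse 3, 4 or 5 or old mouse 1, 2 or 3 was left out in that order, and also within letter A. Since Hist1h1b was known to be lower in old mice when the family was chosen, nothing is read from its call.

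Hist1h1c (ENSMUSG00000036181, chr13:23738808-23740367, plus strand, 1 exon) encodes H1.2. It held 22.6% of the reads of the replication-dependent genes measured, the largest share among them. It had 234, 173, 297, 355 and 352 normalized reads in the young mice and 85.2 to 243 with a median of 163 in the old. The ages overlapped, with 3 old mice above the lowest young one. The log2 difference was -0.83 (SE 0.27), with -0.70 in letter A and -0.71 in letter B. In reads, not corrected for length, Hist1h1b reached 0.373 to 0.594 of Hist1h1c in young mice and 0.139 to 0.630 in old mice. In letter B this ratio was 0.373 to 0.535 in the young and 0.139 to 0.231 in the old mice, whereas in letter A it was 0.450 and 0.594 in the young and 0.203 to 0.630 in the old. The ratio thus did not overlap between ages in letter B and overlapped in letter A. The replacement linker histone H1fx, H1.10, had 19.9, 14.4, 42.0, 45.7 and 48.5 in young and 7.89 to 32.4 (median 14.6) in old mice. Its log2 difference was -0.83 (SE 0.41), with -0.58 in letter A and -0.60 in letter B.

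The H2A and H2B genes of the chromosome 13 cluster followed with larger scatter. Hist1h2ak (chr13:21753435-21753827, minus strand) had 117, 74.5, 151, 233 and 415 normalized reads in young mice and 20.9 to 207 with a median of 74.1 in the old. Its log2 difference was -1.24 (SE 0.45), with -1.02 in letter A and -0.98 in letter B. Its partner Hist1h2bn (chr13:21754123-21754503, plus strand), transcribed away from it across 295 bases, had 12.1, 13.9, 31.0, 67.9 and 84.6 in young and 2.46 to 33.2 (median 11.8) in old mice, a difference of -1.497 (SE 0.58). For Hist1h2bn letter A alone gave -0.995 and letter B alone -1.35. In both genes young mouse 5 was the highest mouse and the ages overlapped.

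There were 7 such head-to-head pairs of 1 H2A and 1 H2B gene among the members, with 238 to 305 bases between the annotated starts. In 2 of them both genes were tested. Hist2h2ac and Hist2h2be form the other one, on chromosome 3, and did not run alike: the log2 age difference was -0.52 for Hist2h2ac and 0.08 for Hist2h2be, and the letter difference 0.79 and -0.36. Hist2h2be (chr3:96221119-96223738) had 26.1, 19.2, 14.7, 22.4 and 16.2 normalized reads in young and 10.8 to 32.4 (median 20.7) in old mice and was the 1 replication-dependent gene tested that did not lie below 0. It has a model of 2620 bases and is known to have a polyadenylated form.

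Of the remaining H2A and H2B genes, Hist1h2ab had 18.4, 15.4, 26.1, 46.3 and 51.1 in young and 6.31 to 39.3 (median 10.4) in old mice. Its log2 difference was -0.97 (SE 0.45), with -0.92 in letter A and -0.58 in letter B. Hist1h2bl and Hist1h2bf reached means of 25.8 and 21.8 in young and 10.3 and 10.5 in old mice, with differences of -1.36 (SE 0.75) and -0.98 (SE 0.70). Within letter A the differences were -0.88 and -0.51, and within letter B -1.15 and -0.73. Each of these 2 genes had under 10 normalized reads in both young mice of letter A, and Hist1h2bl had no read in old mouse 7. Hist1h2af differed by -0.77 (SE 0.31), and 94.0% of its words are shared with other genes.

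Among H3 genes, Hist1h3e (chr13:23561534-23562369, minus strand) had the most reads, with 43.5, 23.6, 94.6, 164 and 195 in young and 15.99 to 136 (median 28.9) in old mice. The log2 difference was -0.97 (SE 0.52), with -0.43 in letter A and -0.83 in letter B, and each letter B mouse lay above each letter A mouse. Hist1h3i and Hist1h3b averaged under 10 in old mice and were tested only through the young. Hist1h3i, Hist1h3b and Hist1h3a differed by -1.32, -0.90 and -0.86, and Hist2h3b, whose words are all shared, by -0.44. Of the 10 H4 genes only Hist2h4 and Hist4h4 were tested, both outside cluster 1. Their median difference was the smallest of the 5 types, which does not cover the H4 genes of cluster 1. Hist2h4 (chr3:96261682-96263311, minus strand) had 57.5, 51.4, 41.8, 61.4 and 119 in young and 35.7 to 73.7 (median 44.2) in old mice, a difference of -0.30 (SE 0.26). Hist4h4 differed by -0.03 (SE 0.26), with 23.4 to 89.0 in young and 36.4 to 52.9 in old mice. The 12 tested genes of cluster 1 had a median difference of -0.98, with 12 of 12 below 0, and the 5 of the other clusters -0.30. The 12 include Hist1h3i and Hist1h3b, so nothing is read from this count or median.

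The replacement variants of H2A and H3 showed smaller age differences, apart from H2afz. H2afz (chr3:137864487-137866922), which encodes H2A.Z, had 12.1, 12.02, 78.7, 88.7 and 95.5 normalized reads in young and 5.19 to 82.9 (median 18.4) in old mice. Its difference of -0.93 (SE 0.73) was -0.49 among letter A mice and -0.40 among letter B mice. H2afv, which encodes the second H2A.Z protein, had 85.9, 37.0, 44.5, 68.9 and 74.9 in young and 33.7 to 74.3 (median 49.2) in old mice, a difference of -0.26 (SE 0.25). H2afx, the variant phosphorylated at DNA breaks, had 108, 61.1, 87.5, 162 and 167 in young and 32.0 to 127 (median 89.9) in old mice, a difference of -0.41 (SE 0.31).

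H3f3b had 360, 468, 925, 1152 and 666 normalized reads in young and 187 to 1060 (median 603) in old mice, and H3f3a had 25.2, 25.5, 109, 112 and 108 in young and 19.0 to 118 (median 36.9) in old mice. Both differed by -0.27 (SE 0.41 and 0.51), and with the letter as a covariate by -0.05 and 0.08. H2afj had 35.5, 63.0, 45.7, 43.2 and 41.7 in young and 18.4 to 55.8 (median 30.3) in old mice and differed by -0.44 (SE 0.26). H2afy2, which encodes macroH2A2, was the 1 variant above 0, at 0.60 (SE 0.46), with 13.7, 15.4, 10.2, 3.34 and 13.2 in young and 6.03 to 26.8 (median 17.9) in old mice. Ages overlapped in each of the 8 variants.

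**Figure D2:**
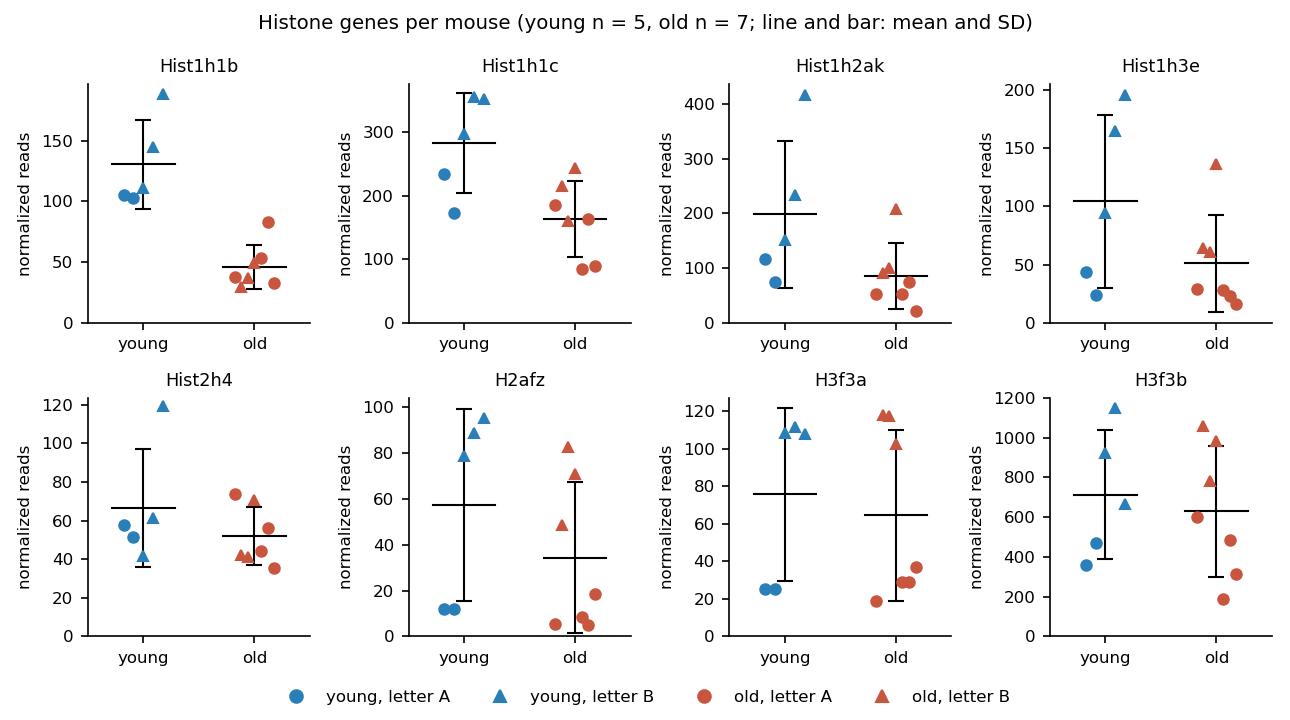
Normalized reads per mouse of 8 histone genes in young (blue, n = 5) and old (red, n = 7) mice; circles are letter A, triangles letter B, and the line and bar give mean and SD. Hist1h1b separates the ages (103 to 188 against 29.9 to 83.1), whereas H2afz and H3f3a separate the letters (H3f3a 19.0 to 36.9 in A and 102 to 118 in B).

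The letter was compared next, with age as a covariate in the same fit. Here 13 of the 25 histone genes were higher in letter B and 0 lower, beside 10.5% of all genes tested called higher and 25.6% called lower. The median log2 difference was 0.79 for the 17 replication-dependent genes and 0.98 for the 8 variants, against -0.09 for all genes. The 13 genes were 8 of the replication-dependent and 5 of the replacement class. Hist1h2bf, Hist1h2bl and Hist1h2bn among them had means of 5.05, 5.58 and 8.95 normalized reads in letter A and so reached the minimum mean of 10 only through letter B, where they were high, as did Hist1h3i and Hist1h3b, which were not called. With these 5 left out, after their values were seen, 10 of 20 histone genes were higher, beside 12.7% of all genes that averaged 10 or more in each letter, and the medians were 0.61 for 12 replication-dependent genes, 0.98 for the 8 variants and 0.07 for all genes. The values of the letters did not overlap, with B above A, in 8 of the 25 and in 3.16% of all genes. The 8 were H2afz, H3f3a, H3f3b, H1fx, Hist1h3e, Hist1h2ab, Hist1h2bf and Hist1h2bn. Hist1h2bf and Hist1h2bn again reached the minimum mean only through letter B, so nothing is read from their place in this count.

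H2afz rose the most, from 5.19 to 18.4 normalized reads in letter A to 48.6 to 95.5 in letter B, a log2 difference of 2.81 (SE 0.28, limma adjusted p = 2.28e-08) or 7.01-fold. Among the variants H3f3a was next with 2.02 (SE 0.19, adjusted p = 1.05e-08). Its values lay within 102 to 118 in all 6 letter B mice of both ages. H3f3b, with 187 to 603 in A and 666 to 1152 in B, rose by 1.26 (SE 0.25, adjusted p = 0.000726), and H1fx by 1.36 (SE 0.27, adjusted p = 0.000759). H3f3b reads stood at 6.41 to 31.8 times the H3f3a reads in letter A and at 6.18 to 10.3 times in letter B.

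Of the 4 replication-dependent H2B genes tested, Hist2h2be, at -0.36, did not pass the test. The other 3, Hist1h2bf, Hist1h2bl and Hist1h2bn, were called higher. These 3 reached the minimum mean only through letter B, so nothing is read from this count or from their adjusted p. Hist1h2bf rose by 2.06 (SE 0.45, adjusted p = 0.00172), from 0.904 to 8.399 normalized reads in A to 11.6 to 46.7 in B. Hist1h2bl rose by 1.99 (SE 0.51, adjusted p = 0.00491), Hist1h3e by 1.90 (SE 0.25, adjusted p = 3.54e-06), Hist1h2bn by 1.82 (SE 0.36, adjusted p = 0.000787), Hist1h2ak by 1.41 (SE 0.27, adjusted p = 0.000541) and Hist1h2ab by 1.39 (SE 0.31, adjusted p = 0.00174). Hist1h1c rose by 0.72 (SE 0.20, adjusted p = 0.008). Each of these genes was also above 0 within the young and within the old mice alone. For Hist2h2ac, at 0.79 (SE 0.28, adjusted p = 0.029), the call was lost without young mouse 1 or 5 or old mouse 2, 4 or 7, where adjusted p ran from 0.0562 to 0.0998. For H2afx, at 0.69 (SE 0.24, adjusted p = 0.0264), it was lost without young mouse 2 or 4 or old mouse 3, 4 or 7, with 0.0552 to 0.109.

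Hist1h1b was not among the genes called. It ranged from 33.2 to 105 in letter A and from 29.9 to 188 in letter B, and its letter difference was -0.01 (SE 0.23, adjusted p = 0.967). Hist4h4 differed by 0.01 (SE 0.25), H2afv by 0.12 (SE 0.23), Hist2h4 by 0.11 (SE 0.24), H2afj by 0.18 (SE 0.25) and H2afy2 by -0.70 (SE 0.40), and none of these was called. H2afv and H2afz encode near-identical proteins. Not corrected for length, H2afv had 2.67 to 11.2 times the H2afz reads in letter A and 0.566 to 1.05 times in letter B.

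**Figure D3:**
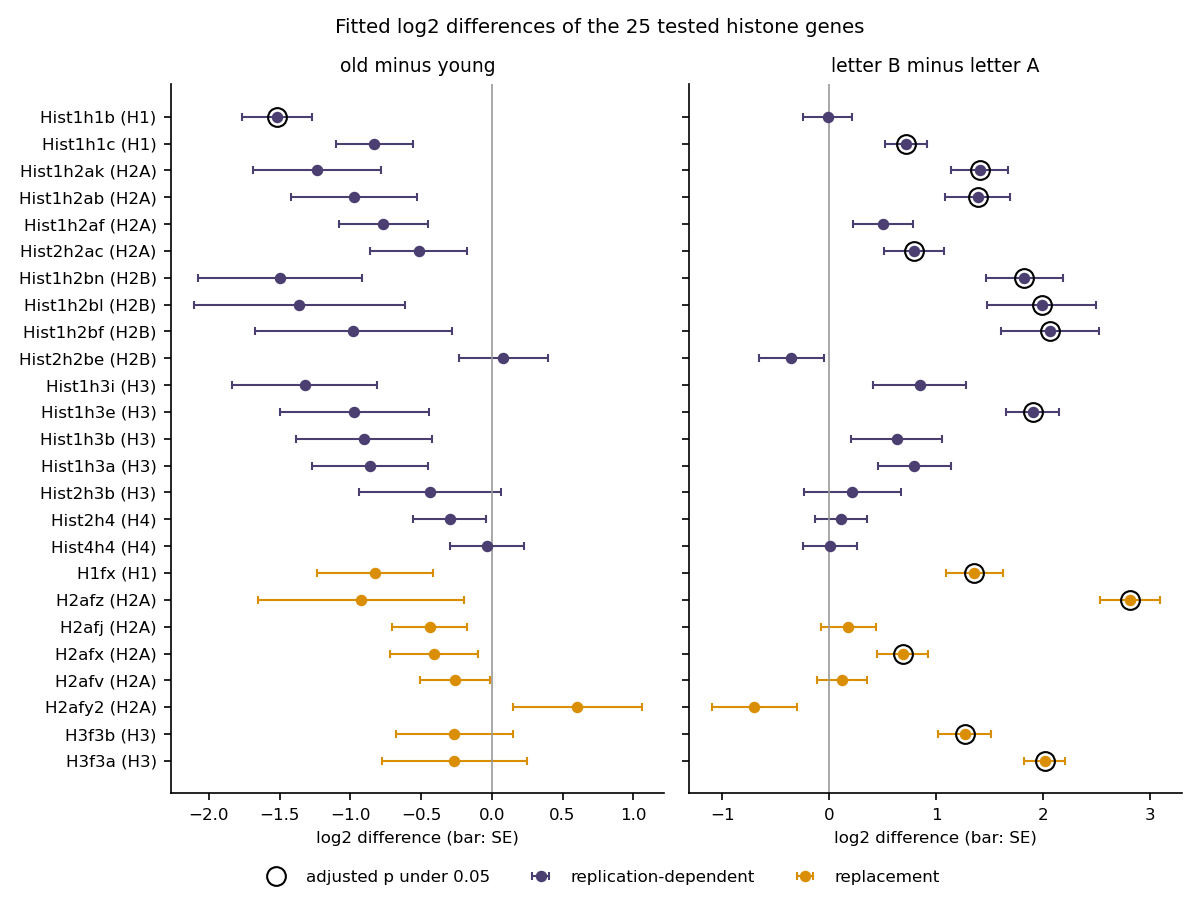
Fitted log2 differences with SE of the 25 tested histone genes, old minus young on the left and letter B minus letter A on the right; replication-dependent genes are purple, replacement variants orange, and a ring marks an adjusted p under 0.05. On the left Hist1h1b is lowest at -1.52, while on the right it lies at -0.01 and H2afz reaches 2.81.

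The letters also differed in depth and in marker genes. When all libraries were thinned to the depth of the smallest one, the median was 0.85 for the replication-dependent genes and 0.94 for the variants. Over all genes it was -0.10. The genes that reached the minimum mean only through letter B are included here. Scaling by TMM raised the median of all genes to 0.26 and that of replication-dependent genes and variants to 1.13 and 1.33, and 16 of 25 histone genes were higher beside 29.7% of all genes, since the split of calls turned from 1301 higher and 3161 lower to 3665 and 2405. With the authors' scaling, which all marker counts here use, 10.5% of all genes tested were called higher in B and 25.6% lower. Beside these shares, 4 of 10 stem cell markers tested were higher in B and 0 lower. Their sums were 1680 to 4263 in A and 4084 to 5687 in B. Markers of other cells ran lower in B: 4 of 10 erythroid genes (sums 206 to 1150 in A, 115 to 378 in B), 4 of 10 myeloid genes (370 to 4654 and 355 to 1116), 4 of 7 lymphoid genes (171 to 325 and 87.5 to 192) and 5 of 8 endothelial or stromal genes (347 to 476 and 252 to 367) were called lower and 0 higher. Of 5 megakaryocyte genes 1 was higher and 1 lower in B, and likewise of 3 progenitor genes. The part of depth and of these cells in the letter difference of histones was not tested.

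Short genes were looked at because most replication-dependent genes are short. Of 119 other genes with under 1000 bases of exon, 10.9% were higher in B, with a median of 0.17. Of the 13 replication-dependent genes of that size 7 were higher, with a median of 0.85, and of the 4 longer ones 1 was. The 13 include Hist1h2bf, Hist1h2bl and Hist1h2bn, which were called, and Hist1h3i and Hist1h3b, which were not. All of these reached the minimum mean only through letter B, so nothing is read from the count or median of the short genes. For old against young, the short other genes had a median of -0.17 and the short replication-dependent genes -0.97. The limit of 1000 bases was set after the values were seen.

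Whether the age difference itself differed between the letters was tested as an interaction. None of the 25 histone genes was called, beside 0.0162% of all genes tested, with limma and also with edgeR, and 0 of 25 had an unadjusted p under 0.05. The estimate for Hist1h1b was -0.83 (SE 0.45, adjusted p = 0.9998), further down in B than in A. With the letter as a covariate 1 histone gene was called lower in old mice, Hist1h1b, beside 0.0162% of all genes, and within letter B 2 were, Hist1h1b and Hist1h1c, beside 0.154%. As these are again differences between the ages on which the family was selected, nothing is read from these counts.

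**Figure D4:**
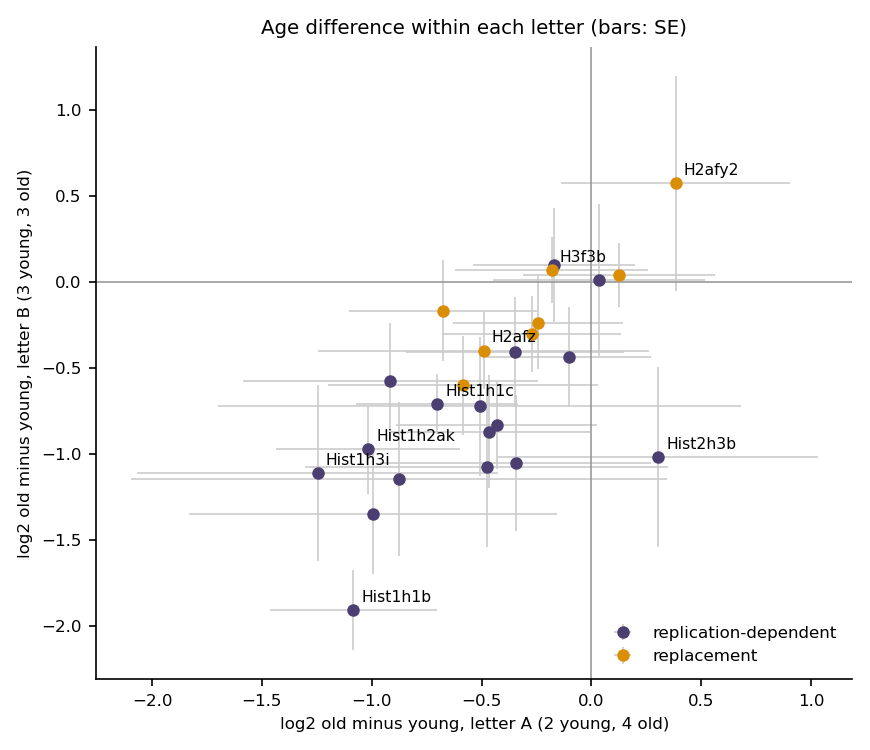
Log2 difference of old minus young within letter A (2 young, 4 old mice, horizontal) against that within letter B (3 young, 3 old mice, vertical) for the 25 tested histone genes, with SE as bars; purple points are replication-dependent genes and orange points replacement variants. Hist1h1b lies at -1.08 and -1.91, and H3f3b lies close to 0 in both (-0.18 and 0.07).

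Genes that make, process or carry histones were taken as the surroundings of the family. Of the 13 tested genes of histone mRNA processing, 11 lay below 0 in old mice with a median of -0.21, and 0 were called by limma or edgeR (unadjusted limma p under 0.05 in 0). Slbp, the stem-loop binding protein, differed by -0.31 (SE 0.22), and Npat, the activator of histone gene transcription, by -0.07 (SE 0.22). Between the letters 1 of the 13 was called higher in B, Sympk, and 1 lower, Zfp473, beside 10.5% and 25.6% of all genes tested. Of 19 histone chaperones and exchange factors, 18 lay below 0 with a median of -0.22, and 0 were called by either tool (1 by unadjusted p). In letter B 5 of the 19 were higher and 0 lower, beside the same 10.5% and 25.6% of all genes.

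S phase genes, which are transcribed with the replication-dependent histones, lay below 0 in 39 of 39 cases with a median log2 age difference of -0.53, and 0 were called by either tool. Of the 39, 20 had an unadjusted limma p under 0.05, beside 488 of all 12354 genes tested. The S phase sums were 2718 to 3931 normalized reads in young and 2139 to 2664 in old mice and did not overlap. The gene lists were chosen with earlier results of these data known, so nothing is read from their age counts and sums. Of 30 genes of the G2 and M phases, 27 lay below 0 with a median of -0.41, 0 were called by either tool (11 by unadjusted p), and sums of 2637 to 4389 and 2284 to 3367 overlapped. In letter B 2 of 39 S phase genes were higher and 3 lower, with a median of 0.04. Of 30 G2 and M genes 1 was higher and 0 lower. Over all genes tested 10.5% were higher in B and 25.6% lower. Progenitor markers lay below 0 in 3 of 3 tested genes with sums of 262 to 514 in young and 223 to 332 in old mice; 0 were called by limma and 1 by edgeR, and 2 had an unadjusted limma p under 0.05. The 3 tested members known to have polyadenylated forms, Hist1h1c, Hist2h2be and Hist4h4, had age differences of -0.83, 0.08 and -0.03, with a median of -0.03. RNAs without a poly(A) tail other than histones were not analysed here, as 0 of the 23 listed were among the genes measured.

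The other marker lists gave median age differences of -0.02 for stem cell, 0.32 for erythroid, 0.51 for myeloid, 0.09 for lymphoid, 0.09 for megakaryocyte and 0.02 for endothelial or stromal genes, and of these genes 1 was called, the lymphoid gene Klrb1c, which was higher in old mice. Sums in young and old mice were 203 to 378 and 115 to 1150 for erythroid, 370 to 1116 and 355 to 4654 for myeloid, 87.5 to 239 and 121 to 325 for lymphoid, 366 to 610 and 437 to 915 for megakaryocyte and 273 to 441 and 252 to 476 for endothelial or stromal markers. Their part in the age values of the histone genes was not tested.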

How the data were processed

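The deposited table held normalized read counts of 12 mice, a signal that the authors obtained by scaling whole reads per gene, with STAR 2.5.4b, edgeR 3.24.3, FastQC 0.11.8 and mm10 named in the submitters' processing notes. The counting tool, the annotation and the handling of reads that match several copies are not given in the sources used here. The labels list 24 samples, 2 per mouse, and each mouse entered once. A second table with the authors' own fold changes, p-values and false discovery rates was not used. Dividing each value by the step of its library gave whole reads (tolerance 0.1 reads, 100% of values in each library), and these reads served for the count-based alternatives.

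log2(value + 1) was, for each of the 12354 genes that averaged 10 or more, fitted with limma 3.58.1 (empirical Bayes with trend, R 4.3.3), Benjamini-Hochberg adjusted over all genes and called under 0.05, for old against young, for letter B against A with age as a covariate, and for their interaction. Fold changes are on the log2(value + 1) scale. Alternatives used edgeR 4.0.16, DESeq2 1.42.0, other pseudocounts, minimum means and scalings, thinned reads, the letter as a covariate or alone, and each mouse left out. The fits were tested on simulated counts with 200 changed genes. Gene models, stem-loops and shared 50-base words come from GENCODE vM21, promoters from RefSeq.

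Members and gene lists were chosen with earlier results of these data known. Named were all tested variants, Hist1h1b, the replication-dependent gene with the highest mean of each type, members called in any fit, replication-dependent members whose ages did not overlap and, of the lists, called genes or the highest one; further members are named to complete a type, after their values were seen, and list genes only where a result turned on them. Young and old mice share replicate numbers, but the numbers name different animals. Labels do not say whether the mice were processed on separate days, so p-values measure the spread between these samples.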

Additional observations from a re-analysis of the deposited data

Results flagged for a closer look

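Single mice stood apart from the rest of their age group in 3 of 42 groups of values examined, where chance flags about 1 in 20 groups. In old mouse 4 Hist1h2ak reached 207 normalized reads, where the remaining old mice had 20.9 to 100.9. Hist1h3e reached 136 there, and the remaining old mice had 15.99 to 64.0. Old mouse 4 belongs to letter B, in which both genes were higher. In young mouse 5 Hist2h4 reached 119, where the remaining young mice had 41.8 to 61.4, and this animal also had the highest sum of replication-dependent reads, 2208.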

How the results depend on the processing

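Between old and young mice 1 histone gene was called, Hist1h1b, and 0 without a trend in the variance and within letter A, 2 within letter B, and 0 to 1 when single mice were left out. Nothing is read from these age calls, since the family was selected on this comparison. The log2 difference of Hist1h1b ran from -1.67 to -1.38 with single mice left out. In a paired fit, a replicate block over the mice numbered 1 to 5 in both ages, 1 gene was called and the median was -0.70 for replication-dependent genes and -0.19 for variants; the same-numbered mice correlated from -0.559 to 0.615, so the numbers do not pair them. The letter comparison called 13 histone genes, 7 at a minimum mean of 30, where fewer genes are tested, and 8 in old mice alone, where fewer mice are. Its median for replacement variants, 0.98, became 0.69 at a minimum mean of 1, 0.15 without a minimum, 1.28 with median-ratio and 1.33 with TMM scaling. The other median differences stayed within 1 SD between mice in each alternative. The median replication-dependent share was 45.9% from normalized values and from recovered reads, and 71.96% without H3f3b, an alternative chosen after seeing the data. Depth limits the low members: 3 reads were worth up to 3.69 normalized reads in the smallest library.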
